A study of Rattus norvegicus with 4 samples.

Results

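Macrophage scavenger and lectin receptors are described here as a set of 10 genes, named with earlier results of these data known. They are the scavenger receptors Cd163, Stab1, Msr1 and Marco, the lectins Mrc1, Cd209f and Fcna, and the folate receptor Folr2. Trem2 and Timd4, receptors for lipid and dying cells, complete the set. Of the 10 genes, 9 had a row among the 30560 rows of the deposited gene table, and Timd4 was not analysed here. The counts came from droplet-based single-cell RNA-seq of wild-type (WT) rat tissue, with 2 libraries of skin and 2 libraries of subcutaneous fascia, made to compare the cells of the 2 tissues. The tissue had been digested with collagenase and elastase, red cells had been lysed and dead cells removed. No treatment separated the libraries, and the labels used here give no strain, age or sex and do not say whether the 2 libraries of a tissue came from different animals. P-values between tissues therefore measure only the spread between libraries, which may be technical. Where groups of the same libraries were compared, they measure how the group differences varied between the 2 libraries.

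These receptors are the means by which tissue macrophages take up material from their surroundings. Scavenger receptors bind modified lipoproteins, haemoglobin complexes and matrix fragments and carry them to lysosomes, lectins bind sugars on glycoproteins and microbes, and Trem2 signals through an adaptor on contact with lipids and cell debris. Many of them are known from long-lived macrophages of connective tissue and serous cavities, and low or absent on newly arrived monocytes, which carry the chemokine receptor Ccr2.

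After filtering, 6760 and 14227 cells remained in the skin libraries (skin 1 and skin 2) and 6551 and 6740 in the fascia libraries (fascia 1 and fascia 2), with a median of 9141, 2460, 12727 and 10413 UMIs per cell. The 9 member genes were left out of the clustering and of the cell type markers. Macrophage- or monocyte-like cells, called macrophages below, numbered 46 in skin 1 and 33 in skin 2 against 1367 in fascia 1 and 1326 in fascia 2. Csf1r, the receptor that macrophages need to survive, stood at 448 to 1363 CPM (a gene's UMIs scaled to the UMI total of the cells summed, per 1e6) in macrophages and at no more than 4.8 CPM in fibroblasts. The class held 3 clusters, and different ones made up most of it in the 2 tissues: cluster 8, led by C1qb, Ccl24 and F13a1, held 62.2% and 52.6% of the fascia macrophages and 4.35% and 0% of the skin macrophages. Cluster 23, led by Fcnb, Cxcl3 and Ms4a7, held 93.5% and 97% of the skin macrophages and 5.49% and 25.6% of those in fascia. Cluster 17, led by Fcrl2, Treml4 and Cd80, was the remainder. Between any pair of libraries, 17 to 45 cell barcodes were shared. Summed keratinocyte markers stood at 919 and 1647 CPM in the skin macrophages against 26.9 and 16.7 CPM in those of fascia, so RNA of other cells moved with tissue, and its part in the results was not tested.

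Macrophages were divided by transcripts that are not members. The C1q group had at least 10 UMIs per 10000 from C1qa, C1qb and C1qc, the chains of the complement recognition protein that resident macrophages secrete, and less than 10 of Slpi. The Slpi group had at least 10 UMIs per 10000 of Slpi, which encodes a secreted inhibitor of leukocyte proteases, and nearly all of its cells (336 of 338 and 152 of 152) also passed the C1q threshold. The Ccr2 Lyz2 group had a Ccr2 UMI, at least 10 UMIs per 10000 of the lysozyme gene Lyz2, and less than 10 of C1q. In fascia 1 and fascia 2 the C1q group held 663 and 779 cells, the Slpi group 338 and 152, and the Ccr2 Lyz2 group 331 and 336. Skin had 44 and 23 cells in the C1q group, 0 in the Slpi group, and 0 and 1 in the Ccr2 Lyz2 group, so only the C1q group could be compared between tissues.

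The clearest division was within fascia, between the C1q and Slpi groups on one side and the Ccr2 Lyz2 group on the other. All 8 members that were tested (Marco and Timd4 could not be) were higher in the C1q group than in the Ccr2 Lyz2 group, and likewise all 8 in the Slpi group. Over all genes, 19.8% were called higher in the first comparison and 19.9% in the second (edgeR quasi-likelihood test with the library as a block, Benjamini-Hochberg adjusted p under 0.05). The 2 comparisons share the Ccr2 Lyz2 cells.

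Among the scavenger receptors, Cd163, which takes up haemoglobin bound to haptoglobin, stood at 1943 and 1782 CPM in the C1q group of fascia 1 and fascia 2, 2085 and 1952 CPM in the Slpi group, and 4.3 and 8.1 CPM in the Ccr2 Lyz2 group. The groups on either side of this division did not overlap. The change was 8.09 ± 0.23 on the log2 scale between the C1q and Ccr2 Lyz2 groups (± SE throughout, 2 libraries, edgeR adjusted p = 3e-06). Each edgeR SE was worked back from the change and its test statistic, and is not the plain spread of the library values. Stab1, an endocytic receptor for matrix fragments and modified proteins, stood at 624 and 579 CPM in the C1q group, 363 and 461 CPM in the Slpi group, and 0.2 and 3.3 CPM in the Ccr2 Lyz2 group. Its log2 change was 8.28 ± 0.43 between the C1q and Ccr2 Lyz2 groups, resting on 1 and 15 Stab1 UMIs in the latter, and ranged from 7.21 to 9.94 under the alternatives. Msr1, the class A receptor for modified lipoproteins, stood at 249 and 283 CPM in the C1q group, 342 and 365 in the Slpi group, and 6.6 and 13.1 in the Ccr2 Lyz2 group. Marco, the class A relative of Msr1 known from alveolar and marginal zone macrophages, had 0 UMIs in macrophages of every library, out of 426710 and 178458 macrophage UMIs in skin and 16013861 and 14279261 in fascia. Its only UMIs were 4 in 3 dendritic-like cells of skin 1 and 1 in a mural-like cell of skin 2.

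Among the lectins, Mrc1, the mannose receptor, stood at 2451 and 2463 CPM in the C1q group, 2045 and 2180 in the Slpi group, and still at 336 and 330 in the Ccr2 Lyz2 group, and its log2 change of 2.74 ± 0.12 was the smallest of the 8 (edgeR adjusted p = 1e-05). Fcna, a secreted and surface ficolin that binds sugars and can start the lectin pathway of complement, stood at 4121 and 3413 CPM in the C1q group, 4452 and 4842 in the Slpi group, and 133 and 107 in the Ccr2 Lyz2 group. Cd209f, a C-type lectin of the DC-SIGN family, stood at 617 and 201 CPM in the C1q group, 779 and 583 in the Slpi group, and 49 and 6.8 in the Ccr2 Lyz2 group. Cd209f was the member that differed most between the fascia libraries in the C1q group, and its log2 change of 3.82 ± 0.49 had the widest error of the 8. Cd209f lies among near copies (Cd209, Cd209a and Cd209e also have rows), and Fcna has the relative Fcnb, so reads shared between copies make these counts uncertain.

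Trem2 stood at 358 and 430 CPM in the C1q group, 247 and 208 in the Slpi group, and 2.7 and 7.2 in the Ccr2 Lyz2 group, with a log2 change of 6.17 ± 0.29 between the first and the last. Folr2, a folate-binding surface protein known from resident macrophages, stood at 1741 and 1554 CPM, 1798 and 1761 CPM, and 119 and 94.3 CPM in the same order, with a log2 change of 3.81 ± 0.15 (edgeR adjusted p = 7e-06). For each of the 8 members the lowest C1q or Slpi value lay above the highest Ccr2 Lyz2 value. The share of all genes that separated in this way was not counted, so this describes the levels only. Cluster 17 held 323 of the 331 Ccr2 Lyz2 cells in fascia 1 and 228 of the 336 in fascia 2.

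**Figure D1:**
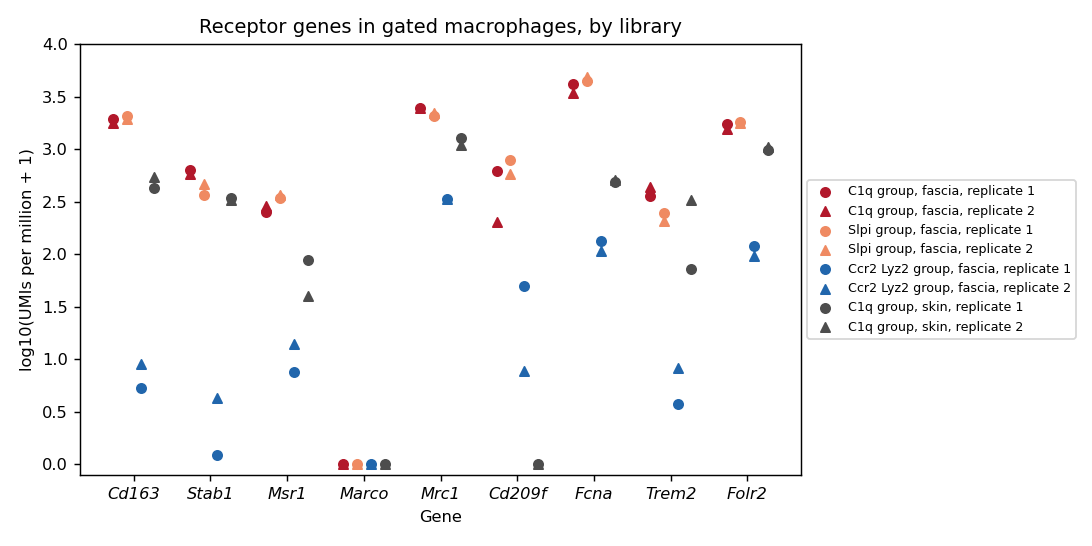
Log10 of CPM + 1 of 9 members in the C1q, Slpi and Ccr2 Lyz2 groups of fascia macrophages and in the skin C1q group, 1 point per library (circle for replicate 1, triangle for replicate 2). The Ccr2 Lyz2 points lie below the C1q and Slpi points of fascia for every member but Marco, which is at 0. For Mrc1 they lie at 336 and 330 CPM against 2045 CPM or more, and for Cd209f at 49 and 6.8 CPM against 201 CPM or more.

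Because these members moved together, the 250 bases before the RefSeq gene start are shown for 5 of them: Stab1 and Mrc1, whose levels in the Ccr2 Lyz2 group were near 0 and well above it, Fcna, which also differed between tissues in macrophages, and Trem2 and Cd209f, which part from each other further below. RefSeq (assembly GRCr8, not the mRatBN7.2 build that the submitters' processing notes name) held a promoter for 9 of the 10 genes. Capitals mark GAGGAA or its reverse complement TTCCTC, the core letters bound by the macrophage factor Spi1, and TGCTGA or TCAGCA, letters of the half-site bound by Maf factors. Both strands were searched, and matches may share letters at their ends. The decimal ending of the chromosome numbers in the labels carries no meaning.

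Fcna, chr3.0:28847238-28847487, minus strand: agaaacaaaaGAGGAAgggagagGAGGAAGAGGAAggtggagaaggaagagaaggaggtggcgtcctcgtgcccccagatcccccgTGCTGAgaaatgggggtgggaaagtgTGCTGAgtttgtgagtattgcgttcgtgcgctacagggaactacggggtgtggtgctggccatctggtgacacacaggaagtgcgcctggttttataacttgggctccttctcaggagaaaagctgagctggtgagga
Stab1, chr16.0:6367360-6367609, minus strand: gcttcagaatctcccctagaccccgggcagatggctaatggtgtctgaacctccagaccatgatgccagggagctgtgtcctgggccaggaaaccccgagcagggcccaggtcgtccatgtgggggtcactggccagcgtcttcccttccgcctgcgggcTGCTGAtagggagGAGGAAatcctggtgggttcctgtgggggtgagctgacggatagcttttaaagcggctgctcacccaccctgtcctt
Mrc1, chr17.0:82157475-82157724, plus strand: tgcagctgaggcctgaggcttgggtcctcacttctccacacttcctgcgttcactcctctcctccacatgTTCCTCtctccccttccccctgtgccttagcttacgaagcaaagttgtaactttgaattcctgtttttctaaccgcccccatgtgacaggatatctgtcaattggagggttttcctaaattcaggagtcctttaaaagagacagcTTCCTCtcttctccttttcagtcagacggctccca
Trem2, chr9.0:20151780-20152029, minus strand: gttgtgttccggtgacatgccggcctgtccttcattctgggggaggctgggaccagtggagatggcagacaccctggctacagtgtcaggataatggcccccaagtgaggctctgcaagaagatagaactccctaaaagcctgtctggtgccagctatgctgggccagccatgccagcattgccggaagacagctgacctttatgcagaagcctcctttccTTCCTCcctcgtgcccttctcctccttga
Cd209f, chr12.0:7282025-7282274, plus strand: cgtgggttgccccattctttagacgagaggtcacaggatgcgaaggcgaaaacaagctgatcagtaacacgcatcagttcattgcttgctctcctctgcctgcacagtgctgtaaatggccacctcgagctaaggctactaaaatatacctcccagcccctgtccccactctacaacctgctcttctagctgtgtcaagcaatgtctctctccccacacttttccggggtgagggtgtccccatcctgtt

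The Fcna window held 3 matches to GAGGAA and 2 to TGCTGA. Stab1 held 1 of each, Mrc1 2 of the first and 0 of the second, and Trem2 1 of the first and 0 of the second. The windows of Cd209f and Cd163 held neither, and that of Folr2 held 1 TGCTGA. The window of Marco, which had 0 UMIs in macrophages, held 1 match to GAGGAA, and that of Timd4 held 2 to TGCTGA. Of 33469 promoter windows of the same kind, 23.3% held the first motif and 15.1% the second, so a match is common, and it is a description of the letters only.

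Between the C1q and Slpi groups of fascia no member passed the test over all macrophages: 0 of 8 were called by edgeR, 0 by DESeq2, and 3 had an unadjusted p under 0.05, beside 1.19% of all genes called in either direction. Trem2 was 0.76 ± 0.20 higher in the C1q group on the log2 scale (adjusted p = 0.173), Msr1 differed by -0.43 ± 0.15 (adjusted p = 0.288) and Cd209f by -1.03 ± 0.42 (adjusted p = 0.396). The 2 groups drew on the clusters unequally: cluster 8 gave 318 of 338 and 147 of 152 Slpi cells, but 532 of 663 and 551 of 779 C1q cells, with 61 and 201 of the latter in cluster 23.

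A comparison within cluster 8 alone was chosen after the data were seen. The members divided into 3 kinds there, with 5 of 8 called beside 7.51% of all genes in either direction. This fit left out the Ccr2 Lyz2 group and had almost no residual degrees of freedom. Over all macrophages the Trem2 change was similar, at 0.76 ± 0.20, with a larger SE, and 1.19% of all genes were called. The choice of cluster and the change of fit cannot be told apart as the source of the added calls. Trem2, Stab1 and Mrc1 were higher in the C1q group. Trem2 stood at 389 and 432 CPM in C1q cells against 261 and 209 CPM in Slpi cells, a log2 change of 0.79 ± 0.09 (edgeR adjusted p = 4e-06), and Stab1 at 727 and 691 against 384 and 474 CPM, a log2 change of 0.74 ± 0.08 (edgeR adjusted p = 3e-06). Mrc1 stood at 2782 and 2784 against 2146 and 2218 CPM, a log2 change of 0.35 ± 0.06 (edgeR adjusted p = 0.00032). In each of these the groups did not overlap, with 2 libraries a side, and the share of all genes that did so was not counted.

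Cd209f and Msr1 went the other way in cluster 8. Cd209f stood at 735 against 808 CPM in C1q and Slpi cells of fascia 1, and at 264 against 590 CPM in fascia 2. It was lower in both libraries although the groups overlapped across libraries (log2 change -0.62 ± 0.14, edgeR adjusted p = 0.00408). The difference was far larger in fascia 2 than in fascia 1, and an SE of 0.14 does not show that spread. Msr1 stood at 276 and 316 against 352 and 374 CPM, without overlap (log2 change -0.30 ± 0.08, edgeR adjusted p = 0.0166). Cd163, Fcna and Folr2 were not called there, with log2 changes of 0.08 ± 0.06, -0.06 ± 0.06 and 0.05 ± 0.06.

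**Figure D2:**
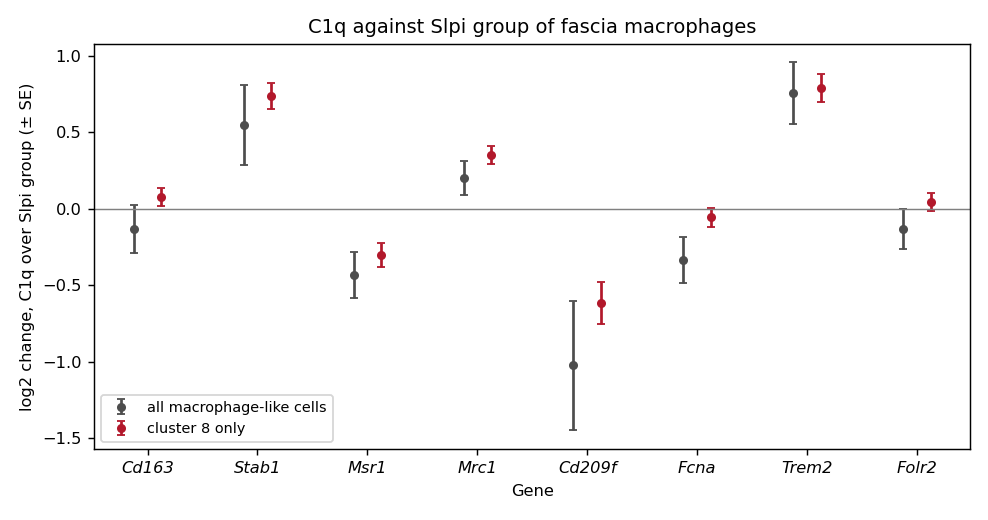
Log2 change of each member in the C1q over the Slpi group of fascia macrophages with its SE, over all macrophages (grey) and within cluster 8 alone (red). In cluster 8 Trem2, Stab1 and Mrc1 lie above 0 and Cd209f and Msr1 below it. Cd163, Fcna and Folr2 lie within 0.08 of 0 there. The cluster 8 fit left out the Ccr2 Lyz2 group and had almost no residual degrees of freedom.

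Trem2 and Cd209f also parted from each other within the C1q group. When cells were thinned to 5000 UMIs each (shallower cells left out), Cd209f was detected in 22.5% of the 378 cells of fascia 1 with a Trem2 UMI and in 50.4% of the 228 cells without one. In fascia 2 the shares were 8.31% of 445 cells and 23.3% of 223 cells. The other members shown in the plot by Trem2 detection went the opposite way: Cd163 was detected in 95% and 92.6% of cells with Trem2 against 75.9% and 83% of cells without it. Kept to cluster 8, the Cd209f shares were 24.5% against 57.1% in fascia 1 and 11.3% against 28.7% in fascia 2. Cells of a library are not replicates, so these shares are descriptions with no test.

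**Figure D3:**
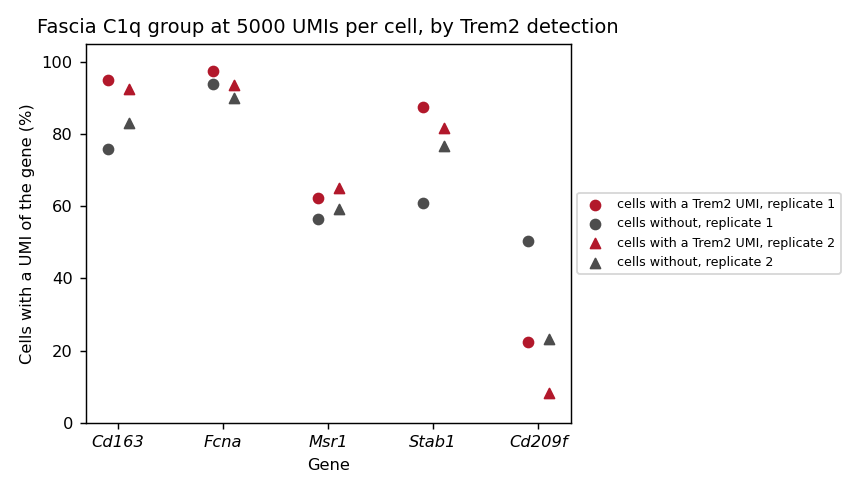
Percentage of C1q group cells of fascia, thinned to 5000 UMIs, with a UMI of 5 members, in cells with (red) and without (grey) a Trem2 UMI, 1 symbol per library (circle for fascia 1, triangle for fascia 2). Cd209f is the gene shown that was detected less often in Trem2 cells, 22.5% against 50.4% and 8.31% against 23.3%.

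The share of cells in which Cd209f was found also differed between the fascia groups and libraries. Thinned to 2000 UMIs, it was detected in 27.7% of C1q cells in fascia 1 (95% exact binomial interval 24.3 to 31.3) and 10.4% in fascia 2 (8.34 to 12.8), against 44.6% (39.2 to 50.1) and 31.6% (24.3 to 39.6) of Slpi cells. Unthinned the shares were 33.5% and 12.8% of C1q cells and 53.8% and 36.2% of Slpi cells. Fibroblasts, which should lack the gene, gave 0.186% and 0.14% thinned. Fcna was detected in 91.6% and 85.1% of thinned C1q cells and in 1.67% and 1.12% of fibroblasts. The intervals cover counting error only.

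Within the C1q group the levels of members differed between clusters, not all in the same order. In cluster 8 Cd163 stood at 2253 and 2173 CPM, in cluster 23 at 1049 and 765 CPM and in cluster 17 at 150 and 156 CPM. Fcna fell along the first step more steeply, from 4872 and 4386 CPM in cluster 8 to 909 and 628 CPM in cluster 23, and Cd209f from 735 and 264 to 53 and 19.8 CPM. Trem2 had the reverse order over that step, with 389 and 432 CPM in cluster 8 against 484 and 490 CPM in cluster 23. In cluster 17, C1q cells had 23 and 46.5 CPM of Trem2 and 30.7 and 49.8 CPM of Stab1. Fcna stood there at 542 and 740 CPM and Cd209f at 97.1 and 16.6 CPM. Fcna thus lay above its cluster 23 level in fascia 2, and Cd209f in fascia 1. These are levels in 70 and 27 cells of cluster 17 and 61 and 201 cells of cluster 23, given as a description because the clusters were made from the same cells.

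Between tissues, all 8 tested members were higher in fascia when every cell of a library was summed, beside 19.4% of all genes called higher (edgeR quasi-likelihood test, 2 against 2 libraries). Cd163 stood at 2.35 and 1.26 CPM in skin against 263 and 228 CPM in fascia, with a log2 change of 6.84 ± 0.44 (edgeR adjusted p = 0.00327). Fcna stood at 3.45 and 1.47 against 568 and 470 CPM, the largest change of the 8 at 7.47 ± 0.59, and Stab1 at 2.62 and 1.89 against 73.7 and 74.9 CPM, the smallest at 4.80 ± 0.28. The number of macrophages moved with these values, at 0.681% and 0.232% of skin cells against 20.9% and 19.7% of fascia cells. Cd209f was the one member whose call was fragile there (edgeR adjusted p = 0.0467). It stood at 1.42 and 0 CPM in skin against 90.6 and 34.1 CPM in fascia. Its call was lost in 3 settings that kept all libraries, DESeq2 among them (adjusted p = 0.0822), and without fascia 1 or fascia 2.

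Within macrophages, fewer members were called between tissues. Cd163, Fcna and Cd209f, 3 of the 8 tested, were higher in fascia, beside 1.68% of all genes called higher. The median log2 change over all genes was 0.22. Fcna stood at 462 and 409 CPM in skin against 3059 and 2453 CPM in fascia, with a log2 change of 2.44 ± 0.34 (edgeR adjusted p = 0.00601). Cd163 stood at 405 and 415 against 1422 and 1198 CPM, a log2 change of 1.47 ± 0.31 (edgeR adjusted p = 0.0285), and lost its call without fascia 1 (adjusted p = 0.33) or fascia 2 (0.124). Cd209f had 0 UMIs in the skin macrophages out of 605168 UMIs and stood at 493 and 182 CPM in fascia. Against a floor of 3 UMIs over the skin group it was at least 69.9-fold higher (edgeR adjusted p = 0.00601). This bound was 20.6-fold without skin 1, 49.3-fold without skin 2, 36.6-fold without fascia 1 and 99.5-fold without fascia 2, and the call was lost without skin 1 (adjusted p = 0.11).

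The other 5 tested members were not called between tissues. In simulated counts this comparison found 4% of 2-fold changes, so a missing call says little. The macrophages summed also held 331 and 336 Ccr2 Lyz2 cells in fascia against 0 and 1 in skin, and their part in these values was not tested. Msr1 stood at 82 and 28 CPM in skin against 202 and 202 CPM in fascia without overlap, but its log2 change of 1.48 ± 0.42 missed the threshold (edgeR adjusted p = 0.0803). Mrc1 stood at 1212 and 829 against 1746 and 1708 CPM (0.53 ± 0.35, edgeR adjusted p = 0.382), Folr2 at 933 and 768 against 1290 and 1078 CPM (0.26 ± 0.32, adjusted p = 0.66) and Stab1 at 323 and 235 against 382 and 368 CPM (0.18 ± 0.32, adjusted p = 0.773). Trem2 stood at 68 CPM in skin 1 and 235 CPM in skin 2 against 229 and 256 CPM in fascia (0.62 ± 0.45, edgeR adjusted p = 0.428), and was the one of these 5 whose tissues overlapped. Msr1 and Trem2 differed the most between the skin libraries, in opposite directions. Without skin 1 its log2 change was -0.04, and without skin 2 it was 1.52 (edgeR adjusted p = 0.0259).

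With only C1q group cells on both sides, a comparison added after the data were seen, Msr1 joined the 3 called members, beside 5.90% of all genes called higher. Skin C1q cells had 427 and 540 CPM of Cd163, 487 and 502 CPM of Fcna and 86.5 and 38.6 CPM of Msr1. Against the fascia C1q cells the log2 changes were 1.74 ± 0.32 for Cd163 (edgeR adjusted p = 0.000981), 2.70 ± 0.33 for Fcna (edgeR adjusted p = 1.2e-05) and 1.66 ± 0.37 for Msr1 (edgeR adjusted p = 0.0042). Cd209f was at least 72.6-fold higher in fascia, a bound that ranged from 17.6-fold without skin 1 to 109.8-fold without fascia 2 when single libraries were left out. Mrc1, Trem2, Stab1 and Folr2 were not called, with log2 changes of 0.83 ± 0.32, 0.98 ± 0.44, 0.62 ± 0.31 and 0.47 ± 0.31.

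When macrophages of cluster 23 alone were compared, the one cluster with cells in all 4 libraries in number, none of the 8 members was called by edgeR and 1 (Cd209f, adjusted p = 0.099) had an unadjusted p under 0.05, beside 9.53% of all genes called in either direction. Over all cells of the cluster the log2 changes were 0.32 ± 0.38 for Cd163, 0.22 ± 0.39 for Fcna, -0.79 ± 0.36 for Stab1, -0.76 ± 0.38 for Folr2 and -0.17 ± 0.35 for Mrc1. In fascia the cluster also held 8 and 108 Ccr2 Lyz2 cells, against 0 in skin. Among its C1q cells alone, Cd163 stood at 375 and 540 CPM in skin against 1049 and 765 CPM in fascia, and Fcna at 443 and 502 against 909 and 628 CPM. In the same C1q cells Stab1 stood at 316 and 324 CPM in skin against 330 and 301 CPM in fascia, and Folr2 at 937 and 1050 against 996 and 800 CPM, so both overlapped between tissues. The share of the class in each cluster thus moved with tissue beside the calls for Cd163 and Fcna, and its part in them was not tested further. The comparison was added after the data were seen and rested on 43 and 32 cells in skin.

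**Figure D4:**
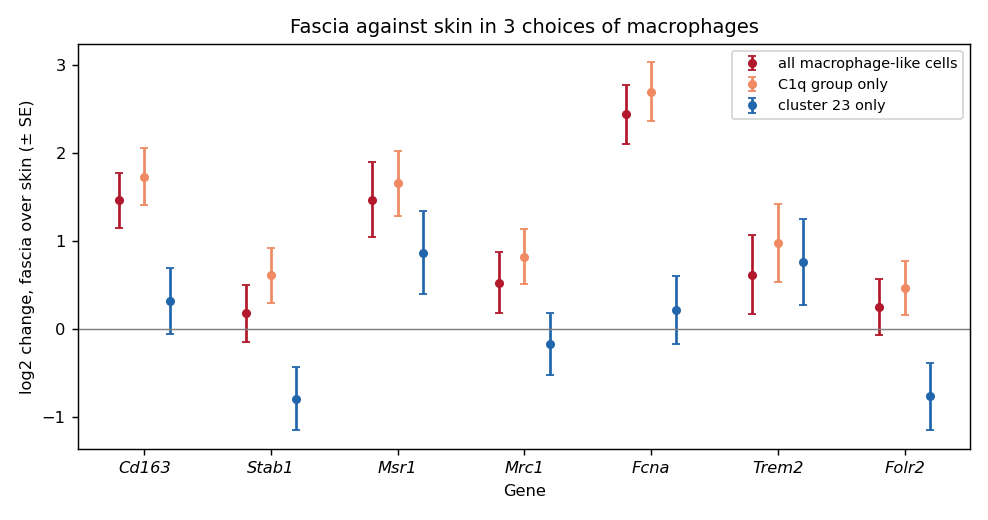
Log2 change of fascia over skin with its SE for 7 members in all macrophages, in the C1q group alone and in cluster 23 alone (2 libraries a tissue, Cd209f left out because it had 0 UMIs in skin macrophages). Fcna lies at 2.44 and 2.70 in the first 2 and at 0.22 in cluster 23, and Stab1, Folr2 and Mrc1 lie below 0 in cluster 23, whose fascia cells include 8 and 108 Ccr2 Lyz2 cells that skin lacks.

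Outside macrophages, Mrc1, Fcna and Folr2 were found in dendritic-like cells and Stab1 in blood endothelial-like cells. In fascia all 8 tested members were higher in macrophages than in dendritic-like cells, beside 17.4% of all genes. Trem2 had a log2 change of 8.38 ± 0.45, Cd209f 8.27 ± 0.35 and Stab1 7.93 ± 0.42, and Mrc1 the smallest at 2.91 ± 0.33 (edgeR adjusted p = 5.1e-05). Mrc1 stood at 222 and 198 CPM in the dendritic-like cells of fascia and 119 and 120 CPM in those of skin, Fcna at 50 and 48.3 CPM and 72.1 and 60 CPM, and Folr2 at 39 and 37.6 CPM and 5.69 and 22.5 CPM. The skin values rested on 72 and 21 cells.

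The next comparisons were chosen after the levels were seen. Against fibroblasts, fascia dendritic-like cells were higher in Mrc1 (log2 change 5.78 ± 0.39), Folr2 (3.38 ± 0.46), Fcna (2.85 ± 0.57) and Msr1 (1.21 ± 0.43, edgeR adjusted p = 0.0305), 4 of 8 members beside 27.8% of all genes. In skin, macrophages were higher than dendritic-like cells in Cd163, Folr2, Mrc1, Stab1 and Trem2, 5 of the 7 tested, beside 2.06% of all genes. Mrc1 had a log2 change of 2.87 ± 0.64 there (edgeR adjusted p = 0.0316). Stab1 and Trem2 had 0 UMIs in the skin dendritic-like cells and were at least 65.5-fold and 25.8-fold higher in macrophages, counted against 3 UMIs over the group, while Fcna (2.44 ± 0.60, edgeR adjusted p = 0.0505) was not called.

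Stab1 is also known from sinusoidal and lymphatic endothelium. Blood endothelial-like cells had 38 and 30.4 CPM of Stab1 in fascia and 20.7 and 26.8 CPM in skin, against 0.82 and 1.73 CPM in fascia fibroblasts and 0 in skin fibroblasts. It was the one member of 8 called higher in fascia blood endothelial-like cells than in fibroblasts (log2 change 4.78 ± 0.37, edgeR adjusted p = 5.5e-07), beside 22.3% of all genes. In skin, with 10.2% of all genes called higher, it was again the one called member (edgeR adjusted p = 0.000137), and at least 55.2-fold higher against 3 UMIs over the fibroblasts. Skin lymphatic endothelial-like cells had 11.3 and 13.5 CPM, below the blood endothelial-like cells in both libraries, but the log2 change of -1.15 ± 0.48 missed the threshold (edgeR adjusted p = 0.597). No member was called in that comparison by edgeR or DESeq2, and 1 had an unadjusted p under 0.05. Over all genes 0.516% were called in either direction. In simulated counts this comparison found 0% of 2-fold and 16% of 4-fold changes, so a missing call says little. Mrc1, known from lymphatic endothelium in other tissues, stood at 4.53 and 6.45 CPM in the lymphatic and 0.54 and 2.8 CPM in the blood endothelial-like cells (log2 change 1.53 ± 1.01, edgeR adjusted p = 0.889). Fascia had only 2 and 4 lymphatic endothelial-like cells.

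Fascia fibroblasts had 0.35 to 9.68 CPM of the 8 members and T or NK lymphocyte-like cells of fascia had at most 9.82 CPM. B or plasma-like cells of fascia 1 had 138 CPM of Cd163 and 265 CPM of Mrc1 in 27 cells, against 3.11 and 148 CPM in the 41 cells of fascia 2. The same cells had 217 and 37.4 CPM of Fcna and 134 and 29.6 CPM of Folr2 in fascia 1 and fascia 2. In skin fibroblasts, 5 of the 9 genes with a row had 0 UMIs in both libraries, and the others had 1 to 6 UMIs in skin 1.

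**Figure D5:**
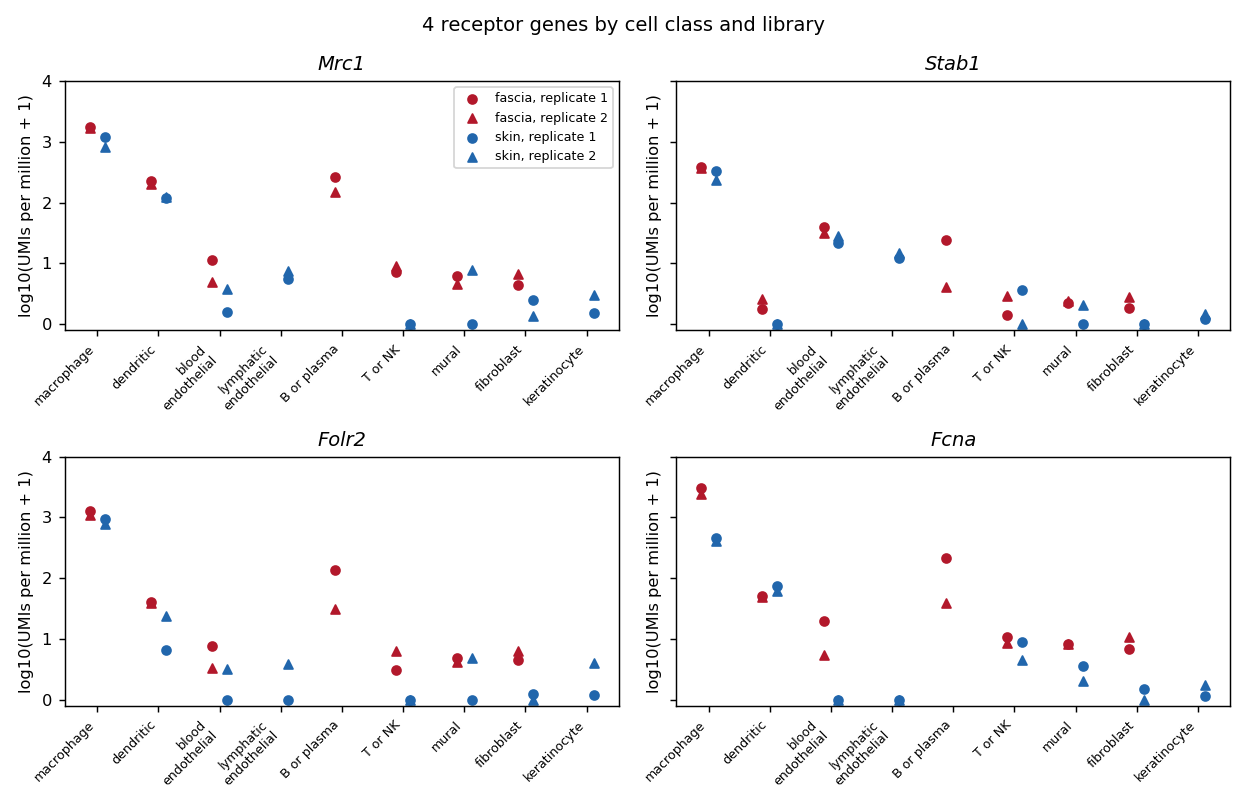
Log10 of CPM + 1 of Mrc1, Stab1, Folr2 and Fcna by cell class, 1 point per library (red fascia, blue skin, circle for replicate 1 and triangle for replicate 2), for classes with at least 20 cells in the library. Macrophages are highest in each panel, with Mrc1 also in dendritic-like cells (222 and 198 CPM in fascia) and B or plasma-like cells (265 and 148 CPM in fascia) and Stab1 in blood endothelial-like cells (38 and 30.4 CPM in fascia).

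The 3 genes most like each member were taken over 18 fascia profiles (9 cell groups in 2 libraries, log2 of CPM + 1, Pearson r among 9754 genes). These correlations are descriptions, since the profiles share libraries and depth. Macrophages entered as the C1q, Slpi and Ccr2 Lyz2 groups, so likeness to C1qa and C1qc is partly set by the gates. Cd163 was closest to the chemokine gene Ccl24 (r = 0.988), Il10 (0.983) and C1qc (0.98). Fcna was closest to Folr2 (r = 0.991), the purinergic receptor gene P2ry13 (0.99) and AABR07002969.1 (0.983), and Folr2 to AABR07002969.1 (0.995), Apobec1 (0.994) and P2ry13 (0.991). Msr1 was closest to P2ry13 (r = 0.981), C1qa (0.98) and Fcna (0.979). Trem2 was closest to the peptide transporter gene Slc15a2 (r = 0.984), the sialic acid lectin gene Siglec1 (0.976) and Msr1 (0.968), and Mrc1 to Aif1 (0.983), RGD1559575 (0.982) and Fcgr1a (0.982). Cd209f was closest to Syndig1 (r = 0.982), Zfat (0.967) and Blvra (0.96), and Stab1 to Wwp1 (0.958), Foxred2 (0.938) and Diras3 (0.933).

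Related gene lists were read beside the members in the comparison of C1q with Ccr2 Lyz2 cells, where the median log2 change over all genes was 0.01, with 19.8% of all genes called higher and 19.3% lower. Of 14 tested genes of haem and iron handling, 12 were higher and 1 lower in the C1q group (median 1.22), led by the biliverdin reductase gene Blvrb at 3.62 ± 0.12, while the haptoglobin gene Hp was lower (-4.71 ± 0.60). Of 13 resident macrophage genes 12 were higher and 0 lower (median 3.89), with Ccl24 at 8.10 ± 0.18. Of 14 monocyte and inflammatory genes 0 were higher and 11 lower (median -2.64), and this list includes Ccr2, which defined the group.

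Other receptor families were read in the same comparison, against the same 19.8% higher and 19.3% lower of all genes. Of 8 other scavenger receptors 6 were higher, with the collectin Colec12 at 4.80 ± 0.40, and 1, the oxidised lipoprotein receptor Olr1, was lower (-3.88 ± 0.52). Of 13 genes listed as other C-type lectin receptors 4 were higher and 3 lower, shares not far from those over all genes. Lyve1 stood at 1.77 ± 0.14 and the collagen-binding Mrc2 at -4.55 ± 0.27. Lyve1 is a hyaluronan receptor and not a C-type lectin, and it was also counted among the resident macrophage genes. Of 11 siglecs and galectins 7 were higher (Siglec10, 6.61 ± 0.24) and 2 lower (Lgals1, -1.86 ± 0.11). Of 5 genes of the lectin complement pathway 0 were higher and 3 lower, with Fcnb, the ficolin relative of Fcna, at -4.18 ± 0.65. Fcna and Fcnb thus lay on opposite sides of this division.

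Lists tied to Trem2 and Folr2 had calls in both directions, again beside 19.8% and 19.3% of all genes. Of 14 tested genes of apoptotic cell uptake 6 were higher and 3 lower, with the phosphatidylserine and mucin-domain receptor Havcr2 at -2.71 ± 0.21, and in the Slpi group the uptake kinase Mertk stood 6.88 ± 0.20 above the Ccr2 Lyz2 group on the log2 scale. Of 18 Trem family and lipid-associated genes 7 were higher and 6 lower (median -0.07), with Treml4 at -2.81 ± 0.23. Of 14 genes of folate uptake and use 6 were higher, with the proton-coupled folate transporter Slc46a1 at 6.04 ± 0.39, and 3 lower, with the mitochondrial enzyme Mthfd2 at -2.98 ± 0.29.

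Between C1q and Slpi cells the same lists were read beside 1.19% of all genes called in either direction. The other C-type lectin receptors had 1 of 13 higher in the C1q group (Clec12a, 2.44 ± 0.33, edgeR adjusted p = 0.0233), siglecs and galectins 1 higher (Lgals1, 0.96 ± 0.12) and 1 lower (Siglec10, -1.32 ± 0.13), and haem and iron handling 1 lower of 14, the transferrin receptor gene Tfrc (-1.14 ± 0.12, edgeR adjusted p = 0.0123). Of 14 genes of apoptotic cell uptake 1 was higher (Cd300lb, 1.89 ± 0.31). Of 14 monocyte and inflammatory genes 1 was higher (Ccr2, 1.85 ± 0.16) and 1 lower (Nlrp3, -1.10 ± 0.12). Ccr2 is a gate gene, so its call is not independent of how the groups were set. The lists of other scavenger receptors, lectin complement, Trem family, folate and resident macrophage genes had 0 calls there.

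Between tissues the lists were read in macrophages beside 1.68% of all genes called higher in fascia and 4.21% lower. Of 13 resident macrophage genes 3 were higher (Lyve1, Siglec1 and Cd38) and 0 lower, and in C1q cells alone 7 of 13 were higher and 0 lower, beside 5.90% of all genes called higher. Of 14 genes listed as other C-type lectin receptors 1 was higher in fascia (Lyve1, 4.58 ± 0.66, edgeR adjusted p = 0.00681) and 1 lower (Clec4e, -2.52 ± 0.53). This Lyve1 call is the same as that counted among the resident macrophage genes, and Lyve1 is not a C-type lectin. Of 11 siglecs and galectins 3 were higher (Siglec1, 3.85 ± 0.64) and 1 lower (Lgals3, -3.08 ± 0.62), and of 9 other scavenger receptors 1 was higher (Colec12, 1.55 ± 0.35) and 2 lower (Olr1, -4.56 ± 0.38). Of 18 Trem family and lipid-associated genes 1 was higher (Lpl, 3.06 ± 0.61) and 3 lower (Cd9, -4.08 ± 0.53), and of 14 genes of haem and iron handling 0 were higher and 3 lower (Flvcr2, -2.31 ± 0.56). Of 15 genes of apoptotic cell uptake 1 was higher (Pros1, 3.09 ± 0.53) and 1 lower (Havcr2, -1.85 ± 0.39). Of 14 monocyte and inflammatory genes 1 was higher (Ccr2, 4.65 ± 0.72). Ccr2 is a gate gene, and its call moved with the Ccr2 Lyz2 cells, 331 and 336 in fascia against 0 and 1 in skin. Of 14 genes of folate uptake and use 1 was lower (Mthfd2, -2.48 ± 0.57). The 5 tested genes of the lectin complement pathway had 0 calls.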

How the data were processed

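Droplet-based single-cell RNA-seq was analysed from 2 skin and 2 subcutaneous fascia libraries of WT rats. The authors deposited raw UMI counts per gene and cell barcode. The submitters' processing notes name Cell Ranger 6.0.1, STAR and the rat build mRatBN7.2, while the matrix headers name a later Cell Ranger release. Strand and intron settings are not given in the sources used here. Barcodes were kept from 500 detected genes upward and up to 20% mitochondrial UMIs. In fascia, cells over the Scrublet threshold were removed as doublets (218 and 193). In skin that threshold called under 0.5% of cells, so top-scoring cells were removed, in a number set by library size (412 and 2144). The doublet rule therefore moved with tissue. The 4 libraries were clustered together with scanpy 1.11.5 (2000 variable genes without the members, 30 components, Leiden resolution 1), which gave 42 clusters, 13 of them unnamed, named from 157 matched markers. Counts were summed per library and class or gate and tested in R 4.3.3 with edgeR 4.0.16 (TMM scaling, quasi-likelihood test, Benjamini-Hochberg adjusted p of 0.05), with the library as a block where groups of the same libraries were compared. DESeq2 1.42.0 was an alternative. A value of 0 was bounded at 3 UMIs over the group. The members and all lists were chosen with earlier results of these data known. The text names all members, the 3 genes most like each, and, from each related list, the called genes that changed most upward and downward, up to 3 a list. In simulated counts the tests found 70% of 4-fold and 4% of 2-fold changes between tissues in macrophages (11580 genes). They found 67% of 2-fold changes between the C1q and Slpi groups (11194 genes). Of 4-fold changes they found 31% between tissues over all cells and 16% between the skin endothelial classes. The labels do not say whether same-numbered skin and fascia libraries came from the same animal. The correlation of their deviations was -0.12 over all cells and -0.01 in macrophages, which with 2 libraries a tissue cannot settle this.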

Additional observations from a re-analysis of the deposited data

How the results depend on the processing

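Of the counts of called members and detection shares under the alternatives, 76 stayed within their limits, 5 rose, 1 fell and 3 shares moved. Of the values of single members, 607 kept their sign and call, or stayed within their spread where no test was run. Of the others, 54 moved, 21 gained a call, 11 lost it and 8 reversed in sign. A kept sign and call sets no limit on the size of a change. Between the C1q and Slpi groups, the 0 members called became 3 with no low-count filter and 1 with at least 200 genes per cell. The count became 2 with doublets kept, 2 at Leiden resolution 0.5 and 5 in cluster 8 alone (added after the data were seen). Trem2 was among the called each time. The fits at Leiden resolution 0.5 and in cluster 8 alone left out the Ccr2 Lyz2 group. The 3 members called between tissues in macrophages became 0 in the shared cluster alone, and ranged from 2 to 4 when single libraries were left out. Over all cells the count of 8 ranged from 7 to 8. The median share of macrophages with a UMI of a member, 40.9% at 2000 UMIs, was 28.7% at 1000, 57.5% at 5000 and 62.9% unthinned, since fewer UMIs per cell leave fewer detected. Changes that reversed in sign were none of them called: between tissues in macrophages Trem2 without skin 1 (-0.042, against 1.52 without skin 2), Stab1 without skin 2 (-0.10, against 0.58 without skin 1), and Folr2 (-0.76), Mrc1 (-0.17) and Stab1 (-0.79) in the shared cluster; Cd163 (0.076) and Folr2 (0.045) between C1q and Slpi cells of cluster 8; and Folr2 between skin endothelial classes with doublets kept (-0.16). For these the cause was not tested.

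Msr1 was called between tissues in macrophages with no low-count filter, doublets kept, Leiden resolutions 0.5 and 2.0, without skin 1, and with the replicate block (log2 change 1.64, edgeR adjusted p = 0.00378). Over all genes in macrophages the 195 higher and 488 lower calls became 320 and 569 with the replicate block, 34 and 144 without skin 1, 64 and 209 without fascia 1, 114 and 334 without fascia 2, 389 and 754 without skin 2, and 664 and 1016 with no filter. Over all cells the 3450 higher and 3377 lower calls became 2639 and 2587 with the replicate block and 3024 and 2936 with the crossed pairing. Between C1q and Slpi cells the 75 higher and 58 lower calls became 2 and 4 with no replicate block, 385 and 224 with no filter, 298 and 288 at Leiden resolution 0.5, 220 and 181 with doublets kept and 393 and 412 in cluster 8. Leiden resolution 0.5 gave no value for the comparisons with Ccr2 Lyz2 cells or for macrophages against dendritic-like cells, because it joined those clusters, and leaving out cells over more than 1 gate removed nearly all Slpi cells.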

Other observations

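Members were also found in clusters that were not named as macrophages, described after their values were seen. Every Cd209f UMI of skin 1, 113 in all, lay in 14 of the 108 cells of an unnamed cluster led by the hair shaft keratin and metallothionein genes Krt33a and Mt4 with S100a3 (52.1 CPM). Those cells had 1 UMI of Mrc1 and 0 of the other members, and the 147 cells of the cluster in skin 2 had 0 UMIs of Cd209f. Folr2 had 243 UMIs in 141 of 1411 cells of another unnamed cluster of skin 2, led by the epidermal genes Tgm3, Stfa2 and Ifnk (16.3 CPM), and 22 UMIs in 14 of its 243 cells in skin 1 (7.46 CPM). In skin 2 these Folr2 cells came with 0 UMIs of Cd163, Fcna and Mrc1 over the cluster. An unnamed cluster of 30 cells in fascia 2, led by genes of both endothelium and macrophages (Clec14a, Ccl24, C1qc), had 955 CPM of Cd163 and 1652 CPM of Fcna.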
